A study of Mus musculus with 72 samples.

Results

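The liver response to cachexia was compared between the C26 and the 8025 tumour models in hepatocyte nuclei. For each gene, the change from PBS-treated to cachectic animals was estimated in each model, and the 8025 change was then subtracted from the C26 change. The comparison used 16 of the 72 libraries in the series, 4 animals in each of 4 groups, taken by their group labels. The comparison itself was chosen with earlier results of these data known. The spread between animals was estimated from all 36 hepatocyte libraries of the series, in 9 groups. The C26 cachexia group held BALB/c mice bearing C26 cells, a colon carcinoma line, and its PBS group held BALB/c mice without tumour cells. The 8025 cachexia group held C57BL/6N mice bearing 8025 tumour cells, and its PBS group held C57BL/6N mice without tumour cells. Livers of all 16 animals were taken at zeitgeber time 9 h, those of tumour-bearing animals after a body weight loss above 10%. All 16 animals carried CAG-Sun1/sfGFP together with Albumin-Cre, so that a fluorescent nuclear envelope protein tagged the nuclei for capture. The Albumin promoter drives Cre in hepatocytes, and RNA of any other nucleus carried through the capture is counted as well. Tumour line, mouse strain and cohort coincide in this design and cannot be told apart in any difference between the models. The labels give neither age nor sex.

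Cachexia is the loss of muscle and fat that accompanies some tumours, and the liver answers it with an acute-phase response and with altered fuel handling. Hepatocytes turn sugar into fat through glycolysis and fatty acid synthesis, under the transcription factors ChREBP (Mlxipl) and SREBP-1c (Srebf1), which respond to glucose and to insulin. Fasting and inflammation are known to lower this programme. A separate group of hepatocyte genes is kept at male levels by pulses of growth hormone through STAT5B and is known to fall in sick rodents.

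The 16 libraries held 8487495 to 40367720 gene counts, and genes with rRNA-like reads took 1.04% to 7.0% of them. Values below are CPM, a gene's count scaled to a library of fixed size with TMM factors. The summed CPM of 15 hepatocyte markers lay at 21856 to 34061 in C26 cachexia, 18972 to 20272 in C26 PBS, 16257 to 21365 in 8025 cachexia and 15875 to 17330 in 8025 PBS, so that hepatocyte markers were abundant in every library. The summed CPM of 7 Y-linked genes lay at 464 to 732 across the 16 animals, so that all were male by their RNA. Animal 3 of the 8025 cachexia group stood apart. Its summed CPM of 14 bile duct markers was 783, against 297 to 351 in the other 3 animals of its group, and its sum of 20 T, NK and B cell markers was 124, the highest of the 16 animals. Results whose call depends on this animal are given with and without it.

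The effects of cachexia were broadly shared between the models. Among 13274 genes tested with edgeR's quasi-likelihood test at a Benjamini-Hochberg adjusted p under 0.05, 2953 changed in C26 cachexia (22.2%, of which 12.2% of all genes rose and 10.0% fell) and 3889 changed in 8025 cachexia (29.3%, 16.2% rose and 13.1% fell). The 1669 genes that changed in the same direction in both made up 56.5% of the C26 calls and 42.9% of the 8025 calls, and 11 changed in opposite directions. Across genes, the C26 and 8025 log2 fold changes correlated with a Pearson r of 0.66 and a Spearman rho of 0.62, as a description over genes that are not independent. The difference between the 2 effects itself passed the test for 127 genes, 0.957% of those tested. The effect was higher in C26 for 52 of them (0.392%) and lower in C26 for 75 (0.565%), and upper-quartile scaling moved this split to 35 and 95. A difference of at least 2-fold was found for 110 of the 127. A fit of the 16 libraries alone, without the other hepatocyte groups, called 47 differences among 13028 genes, 35 of them among the 127. Of these 47, 23 were higher and 24 lower in C26. Over 13274 genes, DESeq2 called 126 higher and 229 lower, and voom 33 higher and 43 lower. Counts by these fits in the gene lists below are to be read against these totals. The median standard error of the log2 difference was 0.31, so that small differences were not detectable with 4 animals per group, and 1863 genes reached an unadjusted p under 0.05.

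**Figure D1:**
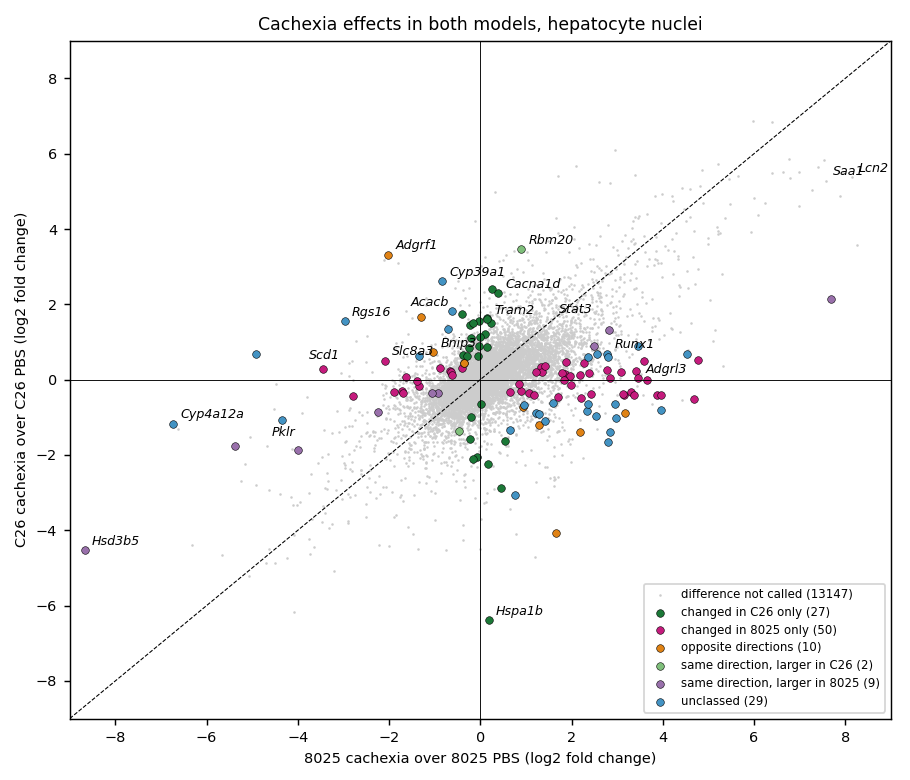
Log2 fold change of cachexia over PBS in C26 (vertical axis) against 8025 (horizontal axis) for 13274 genes in hepatocyte nuclei, n = 4 animals per group. The 127 genes whose effects differed are coloured by class and the dashed line marks equal effects; most genes lie around that line, and 50 of the coloured genes changed in 8025 only.

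Of the 127 genes, 50 changed in 8025 only, meaning that they were called there and neither called nor changed by 1.5-fold in C26, and 36 of these were raised. A further 27 changed in C26 only, 10 moved in opposite directions, 9 moved the same way with a larger effect in 8025 and 2 with a larger effect in C26, and 29 fell in no class. The count depended on single animals. Without animal 3 of the 8025 cachexia group, 57 genes were called and 51 of them were among the 127. The count was 51 without C26 cachexia animal 4, 81 without C26 PBS animal 2, 220 without 8025 cachexia animal 1, 81 without 8025 cachexia animal 2, 59 without 8025 PBS animal 1 and 60 without 8025 PBS animal 2. All 127 differences kept their sign in each of 26 alternative fits, and 16 genes passed the test in all 26. Among these 16 were Acacb, Adgrf1, Bnip3, Cacna1d, Cyp4a12a, Fancc, Grid1, Slc8a3 and Tram2, with effects higher in C26, and Adgrl3, Col4a1, Col4a2, Runx1 and Sirpa, with effects lower in C26.

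The levels behind these differences are described for both conditions. The genes were selected on the cachexia ratio minus the PBS ratio of the same libraries, which itself favours opposite signs of the 2 ratios, so the counts carry no test of where a difference arose. Levels in C26 cachexia differed from those in 8025 cachexia for 26% of all genes tested, and levels in C26 PBS differed from those in 8025 PBS for 20.6%. Among the 52 genes with an effect higher in C26, the level in C26 cachexia was called higher than in 8025 cachexia for 25 and lower for 2, with a median log2 ratio of 0.61. In PBS, 1 of these 52 was called higher in C26 and 35 lower, with a median log2 ratio of -0.72. Among the 75 genes with an effect lower in C26, the cachexia level was called lower in C26 for 53 and higher for 3, with a median log2 ratio of -1.40, and the PBS level was called higher in C26 for 34 and lower for 5. The series holds a second pair of PBS groups of the same strains, from the NC26 cohort (BALB/c) and the MC38 cohort (C57BL/6N), whose levels differed for 28.2% of all genes. In that pair the median log2 ratio, NC26 over MC38, was -0.42 for the 52 genes and 0.90 for the 75.

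**Figure D2:**
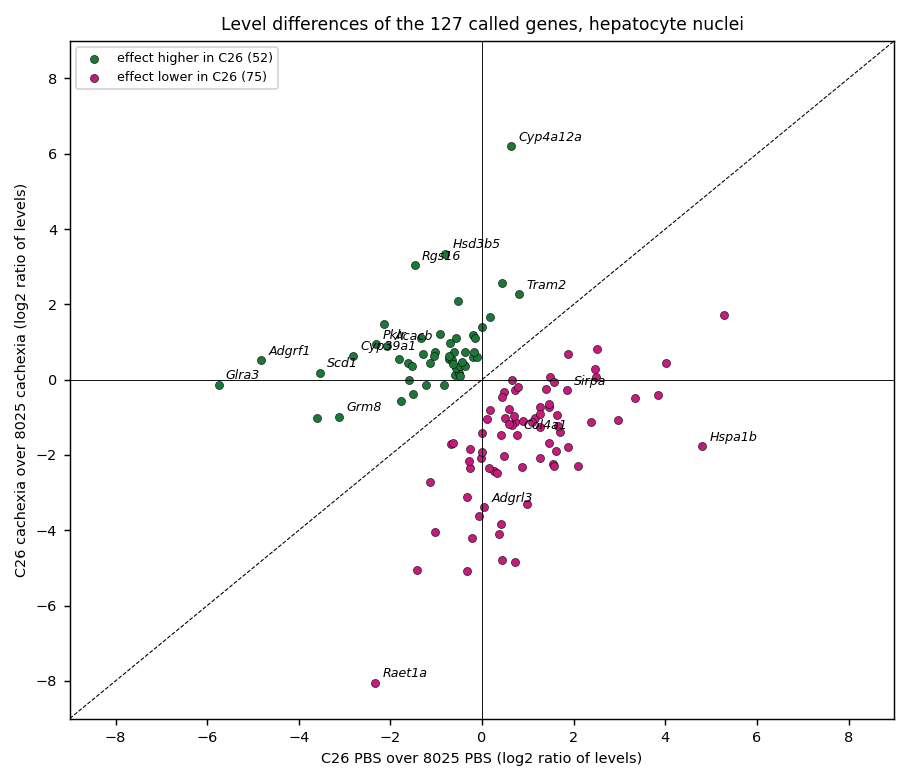
Log2 ratio of the level in C26 over that in 8025 for the 127 called genes, in cachexia (vertical axis) and in PBS (horizontal axis). The selection places genes with an effect higher in C26 above the diagonal and genes with an effect lower in C26 below it; the plot shows how far each gene's levels differed in either condition, with median ratios in cachexia of 0.61 for the 52 genes and -1.40 for the 75.

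A few genes of glucose use and fat synthesis had effects higher in C26. Of 29 lipogenesis genes tested, 1 rose and 9 fell in C26, and none rose and 17 fell in 8025, with median log2 fold changes of -0.50 in C26 and -1.29 in 8025, against 0.00 and -0.02 for all genes. The difference of effects was higher in C26 for 3 of them, Acacb, Pklr and Scd1, lower for none, and had a median of 0.47, against 0.01 for all genes. Of 41 genes of gluconeogenesis, glycolysis and glycogen, 6 rose and 5 fell in C26, and 5 rose and 14 fell in 8025. Among all genes, 12.2% rose and 10.0% fell in C26, and 16.2% rose and 13.1% fell in 8025. The difference was higher in C26 for 3 of the 41, Pklr, Gckr and Pygl, against 0.392% of all genes. Without 8025 cachexia animal 3, Acacb was the only lipogenesis gene called and no gene of the glucose list was called. With the 16 libraries only, the counts were 2 for lipogenesis and 0 for the glucose list. DESeq2 called 4 lipogenesis genes higher, and 3 higher and 1 lower of the glucose list, against 126 higher and 229 lower of all genes. In each list voom called 1, higher in C26. An unadjusted p under 0.05 was found for 11 of the 29 (10 higher) and 9 of the 41 (7 higher), against 1863 of all 13274 genes.

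Acacb (chr5:114165518-114250758, mm10, plus strand), whose product acetyl-CoA carboxylase 2 makes malonyl-CoA at the mitochondrion and so limits fatty acid entry, moved in opposite directions. It had 212, 182, 148 and 170 CPM in C26 cachexia, against 89.6, 49.2, 45.7 and 38.5 CPM in C26 PBS. It had 144, 107, 57.2 and 72.2 CPM in 8025 cachexia, against 234, 322, 246 and 131 CPM in 8025 PBS. The C26 groups did not overlap, as held for 20.8% of all genes, and in 8025 only cachexia animal 1 exceeded the lowest PBS value. Acacb rose 3.19-fold in C26 (adjusted p = 0.0074) and was 2.45-fold lower in 8025 cachexia than in 8025 PBS (adjusted p = 0.027), and the log2 difference was 2.97 ± 0.63 (SE, n = 4 per group; adjusted p = 0.017). Levels in cachexia did not pass the test between the models (log2 ratio 0.90, adjusted p = 0.13), while C26 PBS livers held less than 8025 PBS livers (log2 ratio -2.07, adjusted p = 0.0015). Without 8025 cachexia animal 3 the fall in 8025 missed the threshold (adjusted p = 0.092) and the difference kept its call (adjusted p = 0.047).

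Pklr (chr3:89136142-89146594, plus strand) encodes the liver pyruvate kinase, the last step of glycolysis and a known ChREBP target. The RefSeq promoter window of its liver form is shown because it holds a carbohydrate response element, the ChREBP site. The window spans chr3:89136373-89136672 on the plus strand of GRCm38.p6, from 250 bases before the start to 50 after it, and capitals mark the match, which begins 170 bases before the start.
Pklr: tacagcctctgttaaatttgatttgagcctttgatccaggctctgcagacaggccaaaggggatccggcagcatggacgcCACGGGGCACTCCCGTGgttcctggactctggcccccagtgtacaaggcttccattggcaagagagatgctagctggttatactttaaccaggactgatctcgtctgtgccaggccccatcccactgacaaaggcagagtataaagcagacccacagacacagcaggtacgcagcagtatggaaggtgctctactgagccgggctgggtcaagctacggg
The motif searched was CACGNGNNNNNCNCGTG, which reads the same on both strands and was found in 0.0457% of 32851 promoter windows. Of 88 called genes with a matched window, Pklr alone held it (1.14%), against 0.0492% of 10172 tested genes. The share rests on 1 gene, shown because its window holds the match, so no enrichment can be read from it. Other forms of the element were not searched. The sterol regulatory element TCACNCCAC was in 2.27% of the called genes and 1.53% of the tested genes, and the E-box CACGTG in 5.68% and 11.3%, with both strands searched. These matches describe letters, not binding.

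Pklr had 50.3, 71.9, 34.5 and 33.6 CPM in C26 cachexia, against 96.9, 108, 62.3 and 134 CPM in C26 PBS. It had 20.6, 19.8, 18.4 and 40.2 CPM in 8025 cachexia, against 544, 1085, 224 and 154 CPM in 8025 PBS. Every 8025 cachexia value lay below every 8025 PBS value. The 2 groups did not overlap, in either direction, for 28.1% of all genes tested. Pklr was 2.11-fold lower in C26 cachexia than in PBS, which did not pass (adjusted p = 0.16), and 20.3-fold lower in 8025 cachexia (adjusted p = 4.9e-06), and the log2 difference was 3.27 ± 0.79 (adjusted p = 0.038). Scd1 (chr19:44394450-44407709, minus strand), the main hepatic stearoyl-CoA desaturase, had 9.07, 64.8, 1.19 and 8.37 CPM in C26 cachexia, against 17.2, 12.7, 26.4 and 12.9 CPM in C26 PBS. In the other model it had 32.7, 27.1, 6.52 and 7.53 CPM in 8025 cachexia, against 210, 166, 253 and 176 CPM in 8025 PBS. The log2 difference was 3.72 ± 0.93 (adjusted p = 0.041). It rested on C26 cachexia animal 2, without which it was 1.96 (adjusted p = 0.21). The Scd1 call was lost in 13 and the Pklr call in 10 of the 16 fits that left out 1 animal, with adjusted p up to 0.21 for Scd1 and up to 0.12 for Pklr. The difference without 8025 cachexia animal 3 was 3.13 for Pklr (adjusted p = 0.10) and 3.42 for Scd1 (adjusted p = 0.11).

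Gckr (chr5:31297581-31327302, plus strand), a regulator of hepatic glucose use, rose 1.53-fold in C26, with 452, 614, 401 and 454 CPM in C26 cachexia, against 371, 302, 273 and 308 CPM in C26 PBS (adjusted p = 0.0044). In 8025 it had 333, 260, 225 and 337 CPM in cachexia, against 344, 324, 396 and 344 CPM in PBS, with overlapping groups and no call (adjusted p = 0.17). The log2 difference was 0.90 ± 0.22 (adjusted p = 0.038). Pygl (chr12:70190815-70227683, minus strand), the liver glycogen phosphorylase, was 1.25-fold lower in C26 cachexia than in PBS (adjusted p = 0.44) and 3.70-fold lower in 8025 cachexia (adjusted p = 1.2e-05), and had a log2 difference of 1.57 ± 0.40 (adjusted p = 0.047). Its values were 97.4, 236, 75.2 and 121 CPM in C26 cachexia, against 158, 149, 168 and 184 CPM in C26 PBS. The 8025 values were 108, 104, 62.8 and 115 CPM in cachexia, against 325, 599, 226 and 292 CPM in PBS. The Gckr call was lost in 12 and the Pygl call in 11 of the 16 fits that left out 1 animal, at adjusted p of up to 0.11 for Gckr and 0.14 for Pygl. Leaving out 8025 cachexia animal 3 gave a difference of 0.79 for Gckr (adjusted p = 0.11) and 1.39 for Pygl (adjusted p = 0.13).

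The regulators of this programme and the other enzymes described here did not pass the test of the difference. Mlxipl, which encodes ChREBP, was 1.41-fold lower in C26 cachexia than in PBS (adjusted p = 0.14) and 2.56-fold lower in 8025 cachexia than in PBS (adjusted p = 1.2e-04), with a log2 difference of 0.86 ± 0.34 (adjusted p = 0.24). Srebf1 had a log2 difference of 0.43 ± 0.47 (adjusted p = 0.74), and Fasn, the fatty acid synthase, 1.35 ± 0.71 (adjusted p = 0.40). Me1, the malic enzyme that supplies NADPH, fell in both models, 4.13-fold in C26 (adjusted p = 3.2e-04) and 11-fold in 8025 (adjusted p = 3.5e-07), and its difference was 1.42 ± 0.54 (adjusted p = 0.21). These 4 genes were chosen after their values were seen.

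Other genes with an effect higher in C26 act in membrane signalling, sterol handling and mitochondrial turnover. Adgrf1 (chr17:43270347-43324406, plus strand), an adhesion G protein-coupled receptor, had 5.27, 17.0, 7.20 and 28.0 CPM in C26 cachexia, against 0.93, 0.81, 1.63 and 2.39 CPM in C26 PBS. It had 12.4, 13.3, 6.19 and 8.76 CPM in 8025 cachexia, against 18.6, 44.9, 77.1 and 24.5 CPM in 8025 PBS. Neither pair of groups overlapped. Adgrf1 rose 9.98-fold in C26 (adjusted p = 0.0022) and was 4.04-fold lower in 8025 cachexia (adjusted p = 0.027), with a log2 difference of 5.33 ± 1.03 (adjusted p = 0.0083). Cachexia levels did not differ by the test (adjusted p = 0.61), whereas the C26 PBS level was far below the 8025 PBS level (log2 ratio -4.82, adjusted p = 5.5e-05). Without 8025 cachexia animal 3 the fall in 8025 had an adjusted p of 0.080 and the difference one of 0.023.

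Bnip3 (chr7:138890836-138909506, minus strand), a mitophagy receptor of the outer mitochondrial membrane, had 132, 85.9, 116 and 135 CPM in C26 cachexia, against 60.0, 79.4, 50.8 and 92.8 CPM in C26 PBS. It had 76.8, 73.5, 66.4 and 66.9 CPM in 8025 cachexia, against 159, 104, 184 and 133 CPM in 8025 PBS. It rose 1.66-fold in C26 (adjusted p = 0.034), was 2.04-fold lower in 8025 cachexia (adjusted p = 0.0024) and had a log2 difference of 1.76 ± 0.35 (adjusted p = 0.012). It was the only one of 28 autophagy and proteasome genes with a called difference, against 0.957% of all genes. Rgs16 (chr1:153740353-153745468, plus strand), which shuts off G protein signals, had 101, 67.5, 51.3 and 43.4 CPM in C26 cachexia, against 47.9, 20.5, 10.1 and 11.7 CPM in C26 PBS. It had 13, 5.16, 2.80 and 10.9 CPM in 8025 cachexia, against 67.1, 42.1, 30.2 and 110 CPM in 8025 PBS. The log2 difference was 4.52 ± 1.09 (adjusted p = 0.038), and its call was lost in 11 of the 16 fits without 1 animal, among them the fit without 8025 cachexia animal 3 (4.22, adjusted p = 0.11).

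Cyp39a1 (chr17:43667372-43751431, plus strand), an oxysterol hydroxylase of bile acid synthesis, rose 6.10-fold in C26 (adjusted p = 0.0012), with 17.3, 68.7, 18.9 and 121 CPM in C26 cachexia, against 14, 5.22, 10.2 and 7.71 CPM in C26 PBS. In 8025 it had 60.7, 22.4, 34.2 and 27.3 CPM in cachexia, against 56.9, 74.9, 30.5 and 96.5 CPM in PBS, and was not called (adjusted p = 0.24). The log2 difference was 3.45 ± 0.77 (adjusted p = 0.026), or 3.42 without 8025 cachexia animal 3 (adjusted p = 0.057), and the call was lost in 4 of the 16 fits without 1 animal (adjusted p up to 0.081). Of 28 bile acid genes tested it was the only one with a called difference, against 0.957% of all genes. DESeq2 called 4 in this list, all higher in C26, against 126 higher among all 13274 genes. In this list 8 had an unadjusted p under 0.05, 7 of them higher in C26. Over all genes, 1863 of 13274 had an unadjusted p under 0.05. Slc8a3 (chr12:81197915-81333180, minus strand), a sodium-calcium exchanger, had overlapping values in C26, at 7.19, 7.03, 10.9 and 9.93 CPM in cachexia, against 8.24, 3.68, 8.87 and 4.13 CPM in PBS. In 8025 the groups lay apart, with 1.76, 2.05, 2.22 and 2.26 CPM in cachexia, against 8.85, 8.16, 13.6 and 5.39 CPM in PBS. Slc8a3 was not called in C26 (adjusted p = 0.25), was 4.29-fold lower in 8025 cachexia (adjusted p = 1.6e-05) and differed by 2.60 ± 0.45 (adjusted p = 0.0037). Grid1, a glutamate receptor of the delta family, was 1.35-fold lower in C26 cachexia than in PBS (adjusted p = 0.34) and 6.92-fold lower in 8025 cachexia (adjusted p = 3.0e-07), and differed by 2.36 ± 0.45 (adjusted p = 0.0078).

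**Figure D3:**
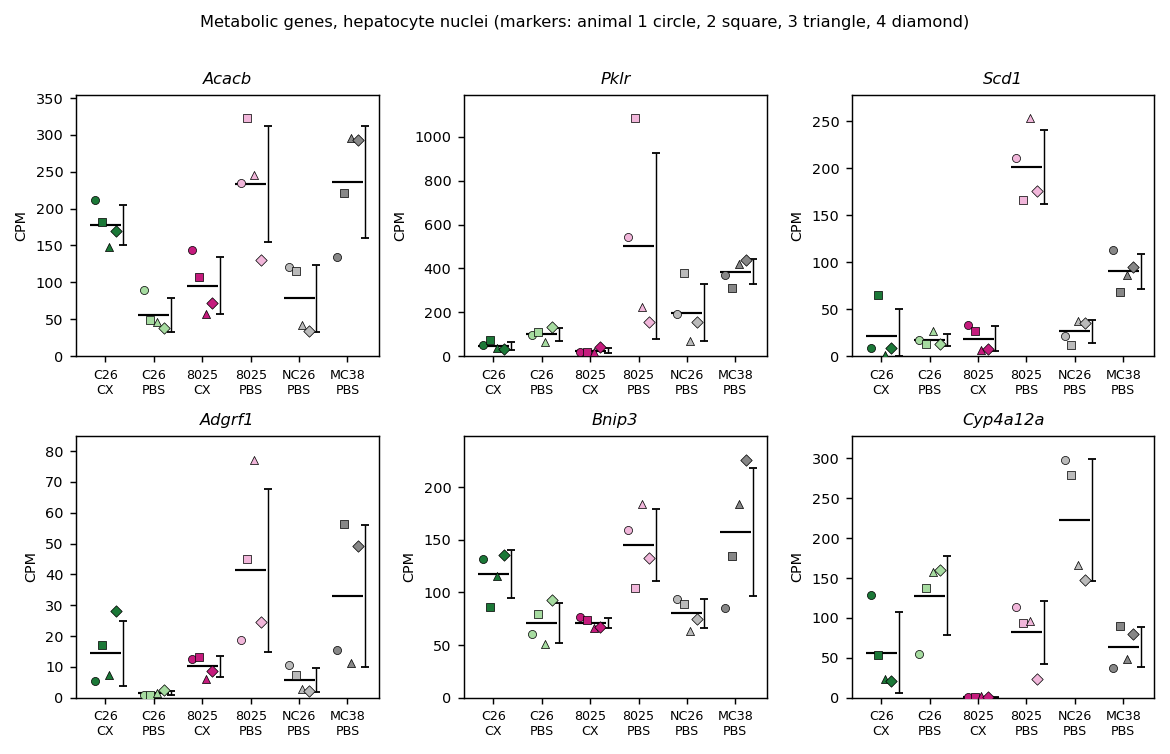
CPM per animal of Acacb, Pklr, Scd1, Adgrf1, Bnip3 and Cyp4a12a in hepatocyte nuclei of C26 cachexia, C26 PBS, 8025 cachexia, 8025 PBS, and the NC26 and MC38 PBS groups. Circles, squares, triangles and diamonds stand for animals 1 to 4, lines for means and bars for SD; for Acacb the C26 cachexia animals (148 to 212 CPM) lie above their PBS animals and most 8025 cachexia animals lie below theirs.

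Male-biased, growth hormone-dependent genes fell in both models for the larger part, and 3 of them had effects higher in C26. Of 24 male-biased genes tested, none rose and 17 fell in each model, with median log2 fold changes of -2.17 in C26 and -2.88 in 8025. Among all genes, 12.2% rose and 10.0% fell in C26, and 16.2% rose and 13.1% fell in 8025. The difference was called higher in C26 for Cyp4a12a, Cyp4a12b and Hsd3b5, against 0.392% of all genes, and its median over the 24 was -0.10. DESeq2 called 4 of the 24, voom 1 and the fit with only the 16 libraries 2, all higher in C26. Among all genes these fits called 126, 33 and 23 higher in C26, in the same order. At an unadjusted p under 0.05, 5 of the 24 were higher and 4 lower in C26, against 1863 of all 13274 genes in either direction. Of 21 female-biased genes, 13 rose in C26 and 10 in 8025, and none fell. No difference was called among them by edgeR or voom, 1 by DESeq2, and 5 had an unadjusted p under 0.05. Cyp4a12a (chr4:115299046-115332815, plus strand), a fatty acid omega-hydroxylase of male mouse liver, had 129, 53.4, 22.8 and 21.2 CPM in C26 cachexia, against 55.3, 138, 157 and 160 CPM in C26 PBS. It had 0.30, 0.37, 1.75 and 0.54 CPM in 8025 cachexia, against 114, 93.3, 96.5 and 24.0 CPM in 8025 PBS. The C26 groups overlapped and the 8025 groups lay far apart. The C26 effect on Cyp4a12a did not pass (adjusted p = 0.088), its level was 106-fold lower in 8025 cachexia than in PBS (adjusted p = 2.5e-08), and the log2 difference was 5.55 ± 0.81 (adjusted p = 4.2e-04). Levels in PBS did not pass the test between the models (adjusted p = 0.38).

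Cyp4a12b (chr4:115411624-115439034, plus strand) is a near-identical neighbour of Cyp4a12a, so that the division of reads between them is uncertain. It had 7.31, 3.61, 1.19 and 1.38 CPM in C26 cachexia, against 5.92, 12.8, 14.7 and 11.6 CPM in C26 PBS. It had 0.41, 0.16, 3.68 and 0.25 CPM in 8025 cachexia, against 64.3, 52.1, 68.9 and 13.5 CPM in 8025 PBS. It fell in both models (adjusted p = 0.032 in C26 and 1.1e-06 in 8025), and the log2 difference of 3.62 ± 0.87 (adjusted p = 0.038) became 5.65 without 8025 cachexia animal 3 (adjusted p = 0.0015). Hsd3b5 (chr3:98618636-98645534, minus strand), a male-biased steroid reductase, had 25, 4.90, 1.98 and 6.02 CPM in C26 cachexia, against 96.3, 290, 177 and 307 CPM in C26 PBS. It had 0.34, 1.21, 0.33 and 2.02 CPM in 8025 cachexia, against 394, 674, 382 and 68.8 CPM in 8025 PBS. It fell 23.1-fold in C26 (adjusted p = 4.9e-05) and further in 8025 (adjusted p = 7.0e-08), with a log2 difference of 4.14 ± 1.03 (adjusted p = 0.040). The Cyp4a12b and Hsd3b5 calls were each lost in 11 of the 16 fits without 1 animal, at adjusted p of up to 0.10 for Cyp4a12b and 0.14 for Hsd3b5. The Hsd3b5 difference without 8025 cachexia animal 3 was 3.81 (adjusted p = 0.12).

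Genes of other metabolic roles also had effects higher in C26. Cyp2f2 (chr7:27119955-27133660, plus strand), a periportal cytochrome P450, had 159, 162, 65.8 and 125 CPM in C26 cachexia, against 261, 252, 202 and 210 CPM in C26 PBS. It had 86.8, 47.2, 28.9 and 61.7 CPM in 8025 cachexia, against 265, 310, 187 and 296 CPM in 8025 PBS. Neither pair of groups overlapped, and the fall was 1.81-fold in C26 and 4.71-fold in 8025, with a log2 difference of 1.38 ± 0.34 (adjusted p = 0.038). Sdhd (chr9:50596340-50603849, minus strand), a membrane anchor of succinate dehydrogenase, fell 1.27-fold in C26 and 2.09-fold in 8025, with a log2 difference of 0.72 ± 0.17 (adjusted p = 0.038). Gstt1, a glutathione transferase, was 1.27-fold lower in C26 cachexia than in PBS (adjusted p = 0.31) and 3.25-fold lower in 8025 cachexia (adjusted p = 4.3e-06), with a log2 difference of 1.36 ± 0.33 (adjusted p = 0.040). Each of these 3 calls was lost in 11 or more of the 16 fits without 1 animal, 14 for Sdhd, at adjusted p of up to 0.10 for Cyp2f2, 0.11 for Sdhd and 0.10 for Gstt1. In the fit without 8025 cachexia animal 3 the difference was 1.15 for Cyp2f2 (adjusted p = 0.10) and 0.63 for Sdhd (adjusted p = 0.11). Of 58 drug and steroid metabolism genes, Cyp2f2 and Gstt1 were the 2 with a called difference, against 0.957% of all genes. DESeq2 called 2 higher and 3 lower in this list, against 126 higher and 229 lower among all genes. Both voom and the fit with only the 16 libraries called none.

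Genes with an effect lower in C26 were mostly raised in 8025 cachexia. Of the 75 genes, 3 rose and 17 fell in C26, and 63 rose and 1 fell in 8025. Their median level was 4.26 CPM, against 41.3 CPM for the 52 genes with an effect higher in C26, and 39 of the 75 lay under a mean of 5 CPM. In 8025 cachexia, animal 3 had the highest of the 4 values for 45 of the 75 genes (60.0%), against 34.4% of all genes tested. Of the 36 genes raised in 8025 only, 16 had a level in 8025 cachexia hepatocyte nuclei under 50% of that in whole liver nuclei (44.4%), against 14.8% of all genes. Whole liver nuclei of the same animals, which also hold the other cells of the liver, called 902 differences (6.57% of 13738 genes). All 73 of the 75 genes tested there had the same sign of difference, and 63 were called. The same held for the 52 genes, all of the same sign and 44 called, against 10589 of the same sign among 13143 genes in both fractions. In these bulk libraries, fewer cells of a type and less RNA per cell cannot be told apart.

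Pmepa1 (chr2:173224465-173276533, minus strand), a feedback inhibitor induced by TGF-beta, had 2.36, 2.35, 2.12 and 1.81 CPM in C26 cachexia, against 2.98, 2.63, 2.53 and 3.12 CPM in C26 PBS. It had 9.50, 10.1, 45.8 and 9.89 CPM in 8025 cachexia, against 3.51, 4.18, 3.45 and 2.91 CPM in 8025 PBS. Its log2 difference was -2.80 ± 0.53 (adjusted p = 0.0075). Its log2 fold change in 8025 was 2.42 (adjusted p = 1.5e-05). Without 8025 cachexia animal 3 that fold change was 1.47 (adjusted p = 1.1e-04) and the difference was -1.87 (adjusted p = 0.011).

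Adgrl3 had the smallest p-value of the difference among the genes described here. Adgrl3 (chr5:81021593-81795730, plus strand), the adhesion receptor latrophilin-3, had 2.76, 1.74, 2.74 and 1.30 CPM in C26 cachexia, against 1.63, 1.37, 2.4 and 2.89 CPM in C26 PBS. It had 23.2, 21.7, 23.6 and 20.3 CPM in 8025 cachexia, against 1.99, 1.69, 2.26 and 2.18 CPM in 8025 PBS. The 4 animals of 8025 cachexia were close together and far above the rest. Adgrl3 rose 11-fold in 8025 (adjusted p = 4.6e-10), with a log2 difference of -3.43 ± 0.37 (adjusted p = 1.3e-06). Its level in whole liver nuclei was higher, at a mean of 155 CPM in 8025 cachexia, against 15.3 CPM in 8025 PBS.

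Basement membrane genes were among those raised in 8025 cachexia. Col4a1 (chr8:11198423-11312826, minus strand) and Col4a2 (chr8:11312805-11449287, plus strand) encode the paired chains of type IV collagen and lie head to head with overlapping ends. Col4a1 had 16.9, 15.1, 20.8 and 10.5 CPM in C26 cachexia, against 19.8, 9.08, 12.3 and 14.8 CPM in C26 PBS. It had 23.7, 39.5, 66.2 and 44.5 CPM in 8025 cachexia, against 8.12, 8.76, 8.29 and 8.0 CPM in 8025 PBS. It rose 5.24-fold in 8025 (adjusted p = 8.3e-07), with a log2 difference of -2.21 ± 0.41 (adjusted p = 0.0075). Col4a2 rose 3.58-fold in 8025 (adjusted p = 1.5e-05), with a difference of -1.85 ± 0.40 (adjusted p = 0.018). Nid1 (chr13:13437602-13512275, plus strand), which links laminin to type IV collagen, had 4.75, 4.64, 9.08 and 8.69 CPM in C26 cachexia, against 8.01, 3.89, 5.10 and 6.17 CPM in C26 PBS. It had 12, 9.90, 106 and 7.18 CPM in 8025 cachexia, against 3.68, 3.58, 2.37 and 2.79 CPM in 8025 PBS. Its log2 difference of -3.19 ± 0.74 (adjusted p = 0.031) was -1.39 without 8025 cachexia animal 3 (adjusted p = 0.14), while its rise in 8025 passed without that animal (adjusted p = 2.9e-04). The Nid1 call was lost in 8 of the 16 fits without 1 animal. Prelp (chr1:133910304-133921401, minus strand), a proteoglycan that anchors basement membranes, had 4.71, 6.00, 8.21 and 5.5 CPM in C26 cachexia, against 7.45, 3.22, 4.24 and 6.4 CPM in C26 PBS. It had 5.93, 6.53, 35.0 and 10.1 CPM in 8025 cachexia, against 2.11, 1.29, 1.62 and 1.70 CPM in 8025 PBS, and its difference was -2.89 ± 0.54 (adjusted p = 0.0075), or -1.96 without animal 3 (adjusted p = 0.015).

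Runx1 (chr16:92601466-92826074, minus strand), a transcription factor best known from blood cell development, had 21.7, 14.3, 12.6 and 14.6 CPM in C26 cachexia, against 17.3, 8.65, 6.90 and 6.33 CPM in C26 PBS. It had 74.0, 91.5, 90.0 and 64.3 CPM in 8025 cachexia, against 11.9, 14.4, 9.69 and 10.3 CPM in 8025 PBS. It was not called in C26 (adjusted p = 0.069) and rose 6.86-fold in 8025 (adjusted p = 3.7e-08), with a log2 difference of -2.09 ± 0.39 (adjusted p = 0.0075). Its mean in whole liver nuclei of 8025 cachexia was 247 CPM. Sirpa (chr2:129592839-129632228, plus strand), the myeloid receptor for CD47, had 33.1, 20.2, 26.7 and 10.8 CPM in C26 cachexia, against 22.6, 19.8, 30.5 and 27.3 CPM in C26 PBS. It had 16, 29.4, 42.1 and 22.1 CPM in 8025 cachexia, against 6.57, 6.55, 7.54 and 7.27 CPM in 8025 PBS. The C26 groups and 8025 cachexia overlapped, and 8025 PBS lay below them all. Its difference was -2.12 ± 0.39 (adjusted p = 0.0062).

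Mid1 (chrX:169685199-169990797, plus strand), an E3 ubiquitin ligase on microtubules, rose in both models. It had 64.5, 65.1, 77.8 and 91.0 CPM in C26 cachexia, against 14.3, 41.3, 31.7 and 32.3 CPM in C26 PBS. It had 149, 167, 162 and 122 CPM in 8025 cachexia, against 19.3, 15.0, 19.1 and 31.8 CPM in 8025 PBS. Mid1 rose 2.49-fold in C26 and 7.06-fold in 8025, with a difference of -1.5 ± 0.36 (adjusted p = 0.036), a call lost in 10 of the 16 fits without 1 animal (adjusted p up to 0.081). The difference was -1.47 without 8025 cachexia animal 3 (adjusted p = 0.075).

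Calls that rested on 8025 cachexia animal 3 included Dlgap2, a synaptic scaffold gene, and Pakap, which encodes a protein kinase A anchor. Dlgap2 (chr8:14095875-14847686, plus strand) had 4.35, 5.29, 6.70 and 3.18 CPM in C26 cachexia, against 5.5, 6.66, 6.99 and 6.83 CPM in C26 PBS, and 3.53, 11.9, 68.6 and 7.08 CPM in 8025 cachexia, against 2.02, 2.29, 1.94 and 2.61 CPM in 8025 PBS. Its log2 difference was -3.77 ± 0.77 (adjusted p = 0.014), or -2.17 without that animal (adjusted p = 0.056). Pakap (chr4:57568248-57896984, plus strand) had 12.7, 14.8, 114 and 9.94 CPM in 8025 cachexia, against 9.04, 10.3, 6.03 and 7.33 CPM in 8025 PBS, and its difference of -2.68 ± 0.68 (adjusted p = 0.047) was -1.09 without that animal (adjusted p = 0.27). Map3k13 (chr16:21891969-21931877, plus strand), a kinase upstream of JNK, had a difference of -2.19 ± 0.51 (adjusted p = 0.031), or -1.60 without that animal (adjusted p = 0.11). Of the 16 fits without 1 animal, the Map3k13 call was lost in 6 (adjusted p up to 0.11) and the Pakap call in 13 (adjusted p up to 0.27).

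**Figure D4:**
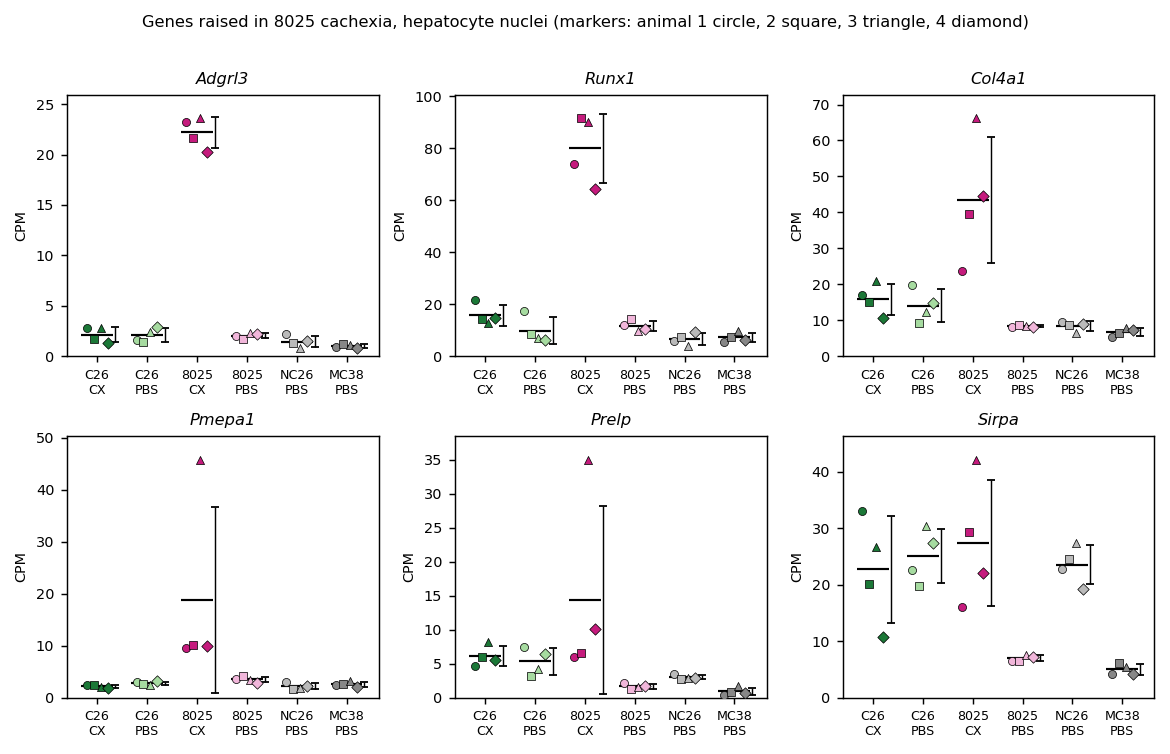
CPM per animal of Adgrl3, Runx1, Col4a1, Pmepa1, Prelp and Sirpa in the same 6 groups, with markers for animals 1 to 4, lines for means and bars for SD. All 6 genes are raised in 8025 cachexia over 8025 PBS, and animal 3 (triangle) stands apart at 45.8 CPM for Pmepa1 and 35.0 CPM for Prelp.

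Markers of other liver cells were summed in each animal of the 4 groups. The summed CPM of 19 monocyte and neutrophil markers was 4.83 to 9.95 in C26 cachexia and 2.31 to 3.26 in C26 PBS, against 18.6 to 22.4 in 8025 cachexia and 3.86 to 4.52 in 8025 PBS. Markers at 0 in all 4 animals were Ngp and Camp in C26 cachexia, 7 markers in C26 PBS, Ly6c2 in 8025 cachexia and 6 markers in 8025 PBS, with Ngp and Camp among them in both PBS groups. For 20 stellate cell and fibroblast markers the sum was 126 to 162 in C26 cachexia, 119 to 170 in C26 PBS, 78.9 to 108 in 8025 cachexia and 104 to 136 in 8025 PBS, with overlap between cachexia and PBS in both models. For 22 endothelial markers it was 362 to 508, 240 to 435, 245 to 363 and 164 to 252.5 in the same order of groups, for 19 Kupffer cell and macrophage markers 271 to 350, 244 to 357, 299 to 377 and 239 to 326, and for 14 bile duct markers 176 to 319, 157 to 256, 297 to 783 and 269 to 344. The part of these cells in the differences was not tested. Among single markers, a difference lower in C26 was called for Ccr2 (1 of 5 monocyte and neutrophil markers tested), Marco (1 of 19 Kupffer cell and macrophage markers) and Col1a1, Col1a2 and Col3a1 (3 of 20 stellate cell and fibroblast markers), against 0.565% of all genes. The median difference of the 20 stellate markers was -0.14, and with only the 16 libraries none of them was called lower and 1 was called higher. Ccr2, the monocyte chemokine receptor, had 0.76, 0.39, 0.47 and 0.46 CPM in C26 cachexia, against 0.65, 0.21, 0.26 and 0.35 CPM in C26 PBS, and 0.86, 1.63, 2.11 and 0.84 CPM in 8025 cachexia, against 0.08, 0.04, 0.11 and 0.24 CPM in 8025 PBS. Its log2 difference was -3.09 ± 0.65 (adjusted p = 0.016), or -2.92 without 8025 PBS animal 1 (adjusted p = 0.058) and -2.77 without 8025 PBS animal 2 (adjusted p = 0.054). The other 4 calls were lost in 6 to 12 of the 16 fits without 1 animal, and all 4 without 8025 cachexia animal 3 (adjusted p = 0.12 for Marco, 0.11 for Col1a1, 0.11 for Col1a2 and 0.13 for Col3a1). None of 12 bile duct genes passed with edgeR or voom, and 2 did with DESeq2. An unadjusted p under 0.05 was found for 6 of the 12, against 1863 of all 13274 genes. All 12 differences were negative, with a median of -1.44, against 6523 negative of all 13274.

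The 27 genes changed in C26 only included genes of secretion, calcium entry, DNA repair and coagulation. Tram2 (chr1:21001397-21079225, minus strand), which helps proteins into the endoplasmic reticulum, had 368, 299, 367 and 362 CPM in C26 cachexia, against 109, 112, 108 and 130 CPM in C26 PBS. It had 70.5, 62.5, 81.6 and 75.4 CPM in 8025 cachexia, against 81.1, 77.6, 47.9 and 55.6 CPM in 8025 PBS, which overlapped. Tram2 rose 3.04-fold in C26 (adjusted p = 3.1e-07) and was not called in 8025 (adjusted p = 0.59), with a log2 difference of 1.46 ± 0.26 (adjusted p = 0.0043). Cacna1d (chr14:30039941-30491156, minus strand), an L-type calcium channel subunit, had 104, 90.6, 105 and 154 CPM in C26 cachexia, against 21.2, 20.7, 26.1 and 24.9 CPM in C26 PBS. It had 125, 65.6, 58.5 and 102 CPM in 8025 cachexia, against 67.1, 52.8, 87.2 and 61.4 CPM in 8025 PBS. It rose 4.89-fold in C26 (adjusted p = 3.1e-07), with a difference of 1.90 ± 0.36 (adjusted p = 0.0078). Its cachexia levels did not pass the test between the models (adjusted p = 0.29), and its PBS level was lower in C26 (log2 ratio -1.53, adjusted p = 7.0e-05).

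Fancc (chr13:63304709-63431745, minus strand), a Fanconi anaemia DNA repair gene, had 22.3, 24.3, 32.5 and 25.4 CPM in C26 cachexia, against 10.7, 13.5, 10.9 and 12.7 CPM in C26 PBS. It had 32.2, 35.5, 40.2 and 28.1 CPM in 8025 cachexia, against 33.6, 31.6, 36.4 and 34.4 CPM in 8025 PBS. It rose 2.19-fold in C26 (adjusted p = 6.0e-06), had a log2 fold change of 0.00 in 8025, and differed by 1.13 ± 0.22 (adjusted p = 0.011). Dapk1 (chr13:60601947-60763191, plus strand), a death-associated protein kinase, had 1082, 624, 787 and 807 CPM in C26 cachexia, against 315, 405, 441 and 387 CPM in C26 PBS. It had 646, 447, 478 and 672 CPM in 8025 cachexia, against 694, 686, 573 and 616 CPM in 8025 PBS, and differed by 1.29 ± 0.28 (adjusted p = 0.021), or 1.21 without 8025 cachexia animal 3 (adjusted p = 0.056) and 1.09 without C26 cachexia animal 1 (adjusted p = 0.055). F9 (chrX:59999464-60030760, plus strand), coagulation factor IX, had 239, 226, 222 and 272 CPM in C26 cachexia, against 64.5, 97.6, 75.2 and 98.7 CPM in C26 PBS. It had 130, 108, 101 and 105 CPM in 8025 cachexia, against 111, 117, 71.2 and 76.5 CPM in 8025 PBS. F9 rose 2.85-fold in C26 (adjusted p = 2.8e-06) and differed by 1.27 ± 0.28 (adjusted p = 0.025), or 1.22 without 8025 cachexia animal 3 (adjusted p = 0.058), a call lost in 4 of the 16 fits (adjusted p up to 0.068). Of 42 complement and coagulation genes, F9 was the only one with a called difference higher in C26, and 1 was called lower. Among all genes, 0.392% were called higher and 0.565% lower. DESeq2 and voom each called 2 higher and 1 lower in this list. Among all genes DESeq2 called 126 higher and 229 lower, and voom 33 and 43.

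Rbm20, a splicing regulator of titin, rose in both models, more in C26. It was nearly absent from C26 PBS and rose 11-fold in C26 cachexia. Its log2 fold change in 8025 was 0.90, or 1.06 without 8025 cachexia animal 3 (adjusted p = 0.0072). It had 4.08, 3.09, 3.46 and 3.86 CPM in C26 cachexia, against 0.33, 0.21, 0.34 and 0.42 CPM in C26 PBS, and 6.83, 8.90, 4.70 and 9.15 CPM in 8025 cachexia, against 3.88, 2.53, 4.95 and 4.67 CPM in 8025 PBS. Its difference was 2.57 ± 0.44 (adjusted p = 0.0037), and its PBS level was lower in C26 (log2 ratio -3.59, adjusted p = 3.9e-09) and in NC26 PBS against MC38 PBS (log2 ratio -3.45, adjusted p = 5.7e-09). Upb1, which completes pyrimidine breakdown, rose 1.85-fold in C26 (adjusted p = 1.1e-04) and was the only one of 51 urea cycle and amino acid genes with a called difference (0.91 ± 0.22, adjusted p = 0.038). Of these 51 differences, 11 were negative, against 6523 of all 13274, and their median was 0.41. An unadjusted p under 0.05 was found for 10 of the 51, 9 of them higher in C26, against 1863 of all genes. Called differences made up 0.957% of all genes. Fmo4, a flavin monooxygenase, rose 3.13-fold in C26 (adjusted p = 1.8e-05) and differed by 1.5 ± 0.35 (adjusted p = 0.034). The Upb1 call was lost in 9 and the Fmo4 call in 12 of the 16 fits without 1 animal, at adjusted p of up to 0.11 for Upb1 and 0.076 for Fmo4. When 8025 cachexia animal 3 was left out, the difference was 0.80 for Upb1 (adjusted p = 0.11) and 1.51 for Fmo4 (adjusted p = 0.063).

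Some genes fell in C26 only or more in C26. Notum (chr11:120653789-120660837, minus strand), a secreted enzyme that inactivates Wnt proteins and marks pericentral hepatocytes, had 4.79, 9.09, 4.0 and 3.83 CPM in C26 cachexia, against 39.8, 19.2, 21.2 and 13.3 CPM in C26 PBS. It had 20.5, 18.6, 13 and 30.9 CPM in 8025 cachexia, against 25.6, 30.4, 17.6 and 19.2 CPM in 8025 PBS. Notum fell 4.29-fold in C26 (adjusted p = 2.5e-05), was not called in 8025 (adjusted p = 0.72), and differed by -1.93 ± 0.45 (adjusted p = 0.032). Its call was lost in 7 of the 16 fits without 1 animal (adjusted p up to 0.068), and of 21 pericentral Wnt targets it was the only one called. Of these 21 differences, 18 were negative, against 6523 of all 13274, and their median was -0.52. An unadjusted p under 0.05 was found for 8 of the 21, all lower in C26, against 1863 of all genes. A called difference lower in C26 was found for 0.565% of all genes. Fgd6 (chr10:94036001-94145339, plus strand), an activator of the GTPase Cdc42, had 250, 198, 212 and 216 CPM in C26 cachexia, against 575, 625, 491 and 550 CPM in C26 PBS. It had 275, 301, 366 and 268 CPM in 8025 cachexia, against 419, 440, 341 and 460 CPM in 8025 PBS. It fell 2.56-fold in C26 and 1.37-fold in 8025 and differed by -0.90 ± 0.22 (adjusted p = 0.038), a call lost in 11 of the 16 fits, among them the fit without 8025 cachexia animal 3 (-0.81, adjusted p = 0.11). Hspa1b, an Hsp70 gene with a near-identical neighbouring copy, was at 0.16, 0.06, 0 and 0.13 CPM in C26 cachexia, against 8.66, 0.98, 18.9 and 3.47 CPM in C26 PBS, the group with the highest values. In 8025 it was 0.19, 0.05, 0.44 and 0.59 CPM in cachexia, against 0.22, 0.36, 0.21 and 0.30 CPM in PBS, and it differed by -6.57 ± 1.37 (adjusted p = 0.016; 0.053 without 8025 cachexia animal 3). Of 28 heat shock and immediate early genes, 3 rose and 15 fell in C26, and 6 rose and 6 fell in 8025, against 12.2% rising and 10.0% falling in C26 and 16.2% rising and 13.1% falling in 8025 among all genes. The difference was called lower in C26 for Hspa1b and for Atf3, against 0.565% of all genes. Atf3 lost its call without 8025 cachexia animal 3 (adjusted p = 0.12).

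**Figure D5:**
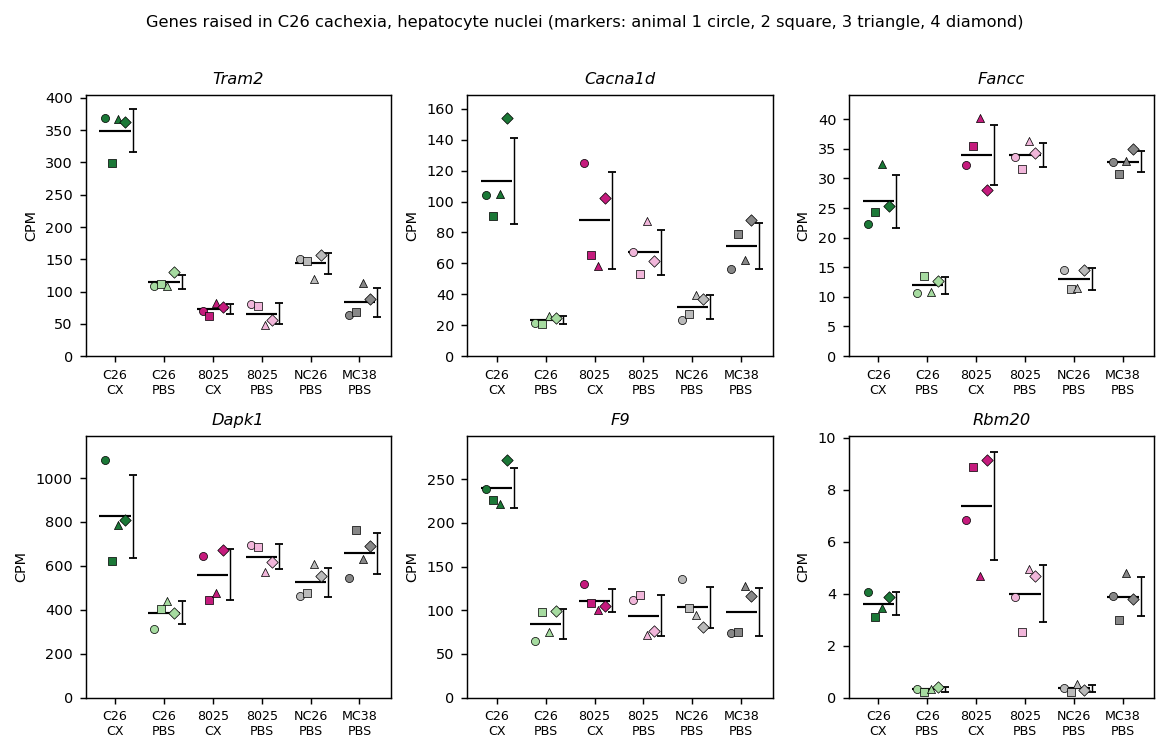
CPM per animal of Tram2, Cacna1d, Fancc, Dapk1, F9 and Rbm20 in the same 6 groups, with markers for animals 1 to 4, lines for means and bars for SD. Each gene is higher in C26 cachexia than in C26 PBS in all 4 animals, and for Cacna1d, Fancc and Rbm20 the BALB/c PBS groups lie below the C57BL/6N PBS groups.

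Most acute-phase genes rose in both models, and edgeR called no difference between the models among 31 acute-phase and 25 IL6-JAK-STAT3 genes, nor did DESeq2 or voom. Of the 25 IL6-JAK-STAT3 genes, 12 rose and 2 fell in C26, and 10 rose and 2 fell in 8025. Among all genes, 12.2% rose and 10.0% fell in C26, and 16.2% rose and 13.1% fell in 8025. At an unadjusted p under 0.05 there were 5 acute-phase differences, all lower in C26, and 3 in the STAT3 list. Over all genes tested, 1863 of 13274 reached that level. Of 31 acute-phase genes tested, 23 rose and 1 fell in C26, and 24 rose and none fell in 8025, with median log2 fold changes of 2.47 in C26 and 2.54 in 8025. Itih3, an inter-alpha-trypsin inhibitor heavy chain, rose 13.8-fold in C26 and 14.4-fold in 8025, and its log2 difference was -0.06 ± 0.54 (adjusted p = 0.98). Lbp, the lipopolysaccharide-binding protein, rose 10.5-fold in C26 and 12.2-fold in 8025, with a difference of -0.21 ± 0.71 (adjusted p = 0.94). Stat3 rose 3.07-fold in C26 and 2.94-fold in 8025, with a difference of 0.06 ± 0.26 (adjusted p = 0.95). Saa1, serum amyloid A, whose reads may be divided with close copies, rose in both models and had a difference of -2.30 ± 1.14 (adjusted p = 0.36). Igfbp1, an insulin-suppressed binding protein, rose 29.1-fold in C26 and 18.5-fold in 8025, with a difference of 0.65 ± 0.97 (adjusted p = 0.83). These p-values do not show that the models act alike, since errors of this size leave room for sizeable differences.

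With edgeR on all 36 libraries no difference was called among 24 clock genes (6 at an unadjusted p under 0.05, 2 with DESeq2, 1 with edgeR on the 16 libraries only), 23 genes of the growth hormone and IGF axis (8 unadjusted, 2 with DESeq2) or 39 interferon-stimulated genes (4 unadjusted, 0 with DESeq2). The same held for 30 cholesterol synthesis genes (3 unadjusted, 1 with DESeq2) and 40 genes of fatty acid oxidation and ketogenesis (7 unadjusted, 1 with DESeq2), and voom called none in these 5 lists. Among the clock genes, Arntl, the activator BMAL1, rose 5.52-fold in C26 and 6.14-fold in 8025 (difference -0.15 ± 0.68, adjusted p = 0.95). Nr1d1, the repressor REV-ERB-alpha, was 3.51-fold lower in C26 cachexia and 2.96-fold lower in 8025 cachexia than in PBS (difference -0.25 ± 0.65, adjusted p = 0.91). Igf1 was not called in C26 (adjusted p = 0.18) or in 8025 (adjusted p = 0.43), and its difference was 1.58 ± 0.74 (adjusted p = 0.33). In 23 NF-kB genes, 6 rose in C26 and 14 in 8025, against 12.2% and 16.2% of all genes. Their differences were negative for 21 of the 23, against 6523 of all 13274. None of the 23 was called by edgeR or voom, 1 by DESeq2, and 6 had an unadjusted p under 0.05. For comparison with all these lists, 1863 of the 13274 genes tested had an unadjusted p under 0.05. Among all genes, DESeq2 called 355 differences and edgeR on the 16 libraries only called 47.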

How the data were processed

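Nuclear total RNA, without poly-A selection, was sequenced as stranded 50-base paired-end libraries, per the labels' protocols. The authors deposited 1 table of gene counts, whole reads per gene. STAR 2.4.2a, DESeq2 1.24.0 and mm10 are named in the submitters' processing notes, without their roles. Strand use in counting is not given in the sources used here. Gene coordinates are those of the deposited table, and its length columns give spans that include introns, so nuclear intronic reads count. Promoter sequences come from RefSeq (GRCm38.p6).

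From the counts, all 36 hepatocyte libraries (9 groups) were fitted with edgeR 4.0.16 in R 4.3.3 by the quasi-likelihood test, after filterByExpr and TMM scaling. Calls use a Benjamini-Hochberg adjusted p under 0.05. Errors are SE of log2 values, worked back from the test as the absolute log2 value over the square root of its F statistic. Whole liver nuclei were fitted likewise. The script was tested on simulated data. Nothing in the labels says how cohorts were housed, and p-values measure the spread between these animals. Alternatives were other scalings and filters, DESeq2 1.42.0, limma 3.58.1 voom, a replicate block and leaving out each animal.

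The comparison, lists and members were chosen with earlier results of these data known. Named genes are the 10 highest and 10 lowest called differences with a mean of at least 5 CPM, the 4 smallest p per class, 3 per list with 3 called members, and 8 fixed genes. Beyond the rule, and chosen after their values were seen, are Grid1, Gstt1, Col4a2, Runx1, F9, Rbm20, Upb1, Fmo4, Notum, Hspa1b, Ccr2 and the lone called members of lists. A few genes chosen this way are not reported here.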

Additional observations from a re-analysis of the deposited data

Results flagged for a closer look

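The cachexia effects of 127 genes differed between the models by the test of the difference. Among genes that passed in both models in opposite directions, the log2 difference, C26 minus 8025, was 5.33 for Adgrf1, 2.97 for Acacb and 1.76 for Bnip3.

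In 12 of 152 sets of 4 animals (7.89%; chance flags about 1 in 20), 1 animal lay far from the other 3 of its group. Animal 3 of 8025 cachexia accounted for 7 of them, with 68.6 CPM for Dlgap2, 106 CPM for Nid1, 35.0 CPM for Prelp, 45.8 CPM for Pmepa1, 114 CPM for Pakap, 1.75 CPM for Cyp4a12a and 3.68 CPM for Cyp4a12b, each the highest of its group. The same animal had the highest bile duct and lymphocyte marker sums, whose part in these values was not tested. The others were Scd1 in C26 cachexia animal 2 (64.8 CPM, the highest), Pklr in 8025 cachexia animal 4 (40.2 CPM, the highest), Map3k13 in C26 PBS animal 4 (141 CPM, the highest), and Tram2 in C26 cachexia animal 2 (299 CPM, the lowest) and C26 PBS animal 4 (130.1 CPM, the highest).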

How the results depend on the processing

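Called differences numbered 127 in the reported fit. They numbered 47 with only the 16 libraries, 55 with a mean of at least 5 CPM, 110 without a filter, 355 with DESeq2, 76 with voom, 130 with upper-quartile scaling, 142 with DESeq2 size factors and 143 without genes of rRNA-like reads. With the PBS animals of both cohorts of a strain pooled, an alternative added after seeing the data, 451 were called. Leaving out 1 animal gave 51 to 220. Animals of a cohort with the same number also had neighbouring library names, and the labels do not say what else they shared. Correlations of their deviations ran from -0.13 to 0.28, and 2 of 8 correlated best with their own number. A fit with the number as a replicate block called 78 differences. Its level comparisons between the models, with 443 cachexia and 594 PBS calls, refer to the fitted level of number 1 in each cohort. They are a different quantity from the group levels of the reported fit and cannot be set against them. With a mean of at least 5 CPM, 2390 genes changed in 8025 and 2236 cachexia levels differed. In whole liver nuclei the count was 902, 515 with 16 libraries only, and 539 to 1064 without 1 animal. No result changed sign where it was called, and the cause of the changed counts was not tested. Over all genes followed under the alternatives, a wider set than the named genes, 1911 values kept their side of the threshold, 426 lost a call and 11 gained one. The median of all genes moved by less than 0.1 under each scaling. Levels near 1 CPM limit the low genes.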

Other observations

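Several genes of endocrine and drug response had large estimated differences that did not pass the test; they were chosen after their values were seen. Lepr, the leptin receptor, had 5.63, 13.6, 26 and 31.9 CPM in C26 cachexia, against 3.21, 3.50, 2.66 and 3.16 CPM in C26 PBS, and 14.7, 10.5, 14.1 and 4.62 CPM in 8025 cachexia, against 7.36, 4.70, 33.5 and 18 CPM in 8025 PBS. It rose 6.15-fold in C26 (adjusted p = 0.0061), and the log2 difference was 3.12 ± 0.93 (adjusted p = 0.096). Lpin1, a phosphatidate phosphatase and transcriptional coactivator, had 939, 742, 1009 and 1602 CPM in C26 cachexia, against 757, 423, 208 and 471 CPM in C26 PBS, and 530, 346, 307 and 428 CPM in 8025 cachexia, against 1141, 2029, 828 and 839 CPM in 8025 PBS. Its log2 difference was 2.79 ± 0.85 (adjusted p = 0.10). Cyp7b1, an oxysterol hydroxylase of male-biased level, had a log2 difference of 3.32 ± 1.08 (adjusted p = 0.13), and Cyp2b10, a target of the receptor CAR, one of 5.28 ± 1.75 (adjusted p = 0.14). Muc1, a mucin of epithelial cells, rose in both models, 2.66-fold in C26 (adjusted p = 0.021) and 14.2-fold in 8025 (adjusted p = 2.2e-06), with a log2 difference of -2.42 ± 0.69 (adjusted p = 0.080).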
